A study of Mus musculus with 10 samples.

Results

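Most mitochondrial ribosomal proteins are named Mrpl or Mrps with a number, and those with other symbols are described separately below. The 78 genes whose symbol begins that way in the table of 55401 genes are described here, leaving out symbols marked as pseudogenes. The rule uses the symbol and no measured value. The data are RNA counts of cells sorted from the meninges of female C57BL/6 mice that were 3 months old. The paper's methods give the strain as C57BL/6J. Cells negative for CD45 and positive for CD31 and podoplanin were taken, which is a gate for lymphatic endothelial cells, and each replicate is a pool from 3 to 4 meninges. There were 5 replicates of naive mice and 5 of mice exposed to sub-chronic variable stress (SCVS) for 6 days. The question was whether the expression of these cells differs after stress.

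Mitochondria carry their own ribosome, which translates the few membrane proteins that the mitochondrial genome encodes, all of them parts of the respiratory chain and ATP synthase. Its RNAs come from mitochondrial DNA, while all its proteins are encoded in the nucleus, made in the cytosol and imported. Some of these proteins have a counterpart in bacterial ribosomes and others exist only in mitochondria. Of the 78 genes, 51 encode proteins of the large subunit and 26 proteins of the small subunit. Mrps18a and Mrps30 were counted with the large subunit, where their proteins sit. The remaining gene, Mrps36, encodes a component of the 2-oxoglutarate dehydrogenase complex in spite of its symbol.

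The total count lay between 10421467 and 13975282 in the naive replicates and between 9984743 and 14094155 in the SCVS replicates. Levels are given in CPM, counts per 1000000 counts of the replicate. A gene with at most 3 counts was treated as undetected, a floor of between 0.213 and 0.3005 CPM. As the RNA was amplified and reads carry no molecular tag, this floor speaks for counting error alone.

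Some replicates went against the cell type in their label, and markers of other cell types were present in all of them. Lymphatic endothelial markers were Prox1, Lyve1, Flt4, Pdpn, Mmrn1 and Ccl21a. Their summed level in naive replicates 1 to 5 was 60.4, 2421, 893, 1049 and 184 CPM. In SCVS replicates 1 to 5 it was 1172, 1072, 2717, 2898 and 380 CPM. Naive replicate 1 was the lowest of the 10, and 3 of the 6 markers were at or under the floor in it, with 0 counts of Prox1 and of Pdpn. Naive replicate 5 had 287 counts of Pecam1, 2 of Cldn5 and 1 of Lyve1, but 843 of Prox1. It also had the highest sum of neuronal and glial markers, 3159 CPM against at most 1869 CPM in the other replicates, led by Snap25 with 20496 counts. SCVS replicate 5 had 2 counts of Prox1, its only lymphatic marker at or under the floor. Its sum of erythroid markers was 4336 CPM, led by Hba-a1 with 24839 counts. Blood endothelial markers summed to between 2172 and 7284 CPM outside naive replicate 5, with Plvap the most abundant in most of them. In naive replicate 5 they summed to 292 CPM. The blood endothelial sum was above the lymphatic sum in every replicate but SCVS replicate 3. Mural markers summed to between 390 and 7526 CPM, with Rgs5 the most abundant in each replicate but naive replicate 2, where Acta2 was. The mural sum was above the lymphatic sum except in naive replicates 2 and 3 and SCVS replicate 1. Fibroblast markers summed to between 3.69 and 1456 CPM, and leukocyte markers to between 6.11 and 348 CPM. The sums are of different genes, so they do not give shares of cells. The part of these other cells in the values below was not tested. In bulk RNA, fewer cells of a type and less RNA per cell cannot be told apart.

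The ribosomal protein genes of the mitochondrion were detected in almost every replicate. More than 3 counts were found for 73, 76, 70, 76 and 76 of the 78 members in naive replicates 1 to 5. The numbers were 76, 78, 74, 76 and 75 in SCVS replicates 1 to 5. The groups overlapped, and the lowest number was that of naive replicate 3. Of the members, 59 (75.6%) exceeded the floor in all 10 replicates, while 38.1% of the 14815 genes tested did so, and 79 of 82 (96.3%) tested genes for ribosomal proteins of the cytosol. Detection depends on level, and among tested genes with a mean CPM between 37.3 and 72.7, the interquartile range of the members, 67.8% of 2317 genes and 30 of 38 members (78.9%) exceeded it everywhere.

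**Figure D1:**
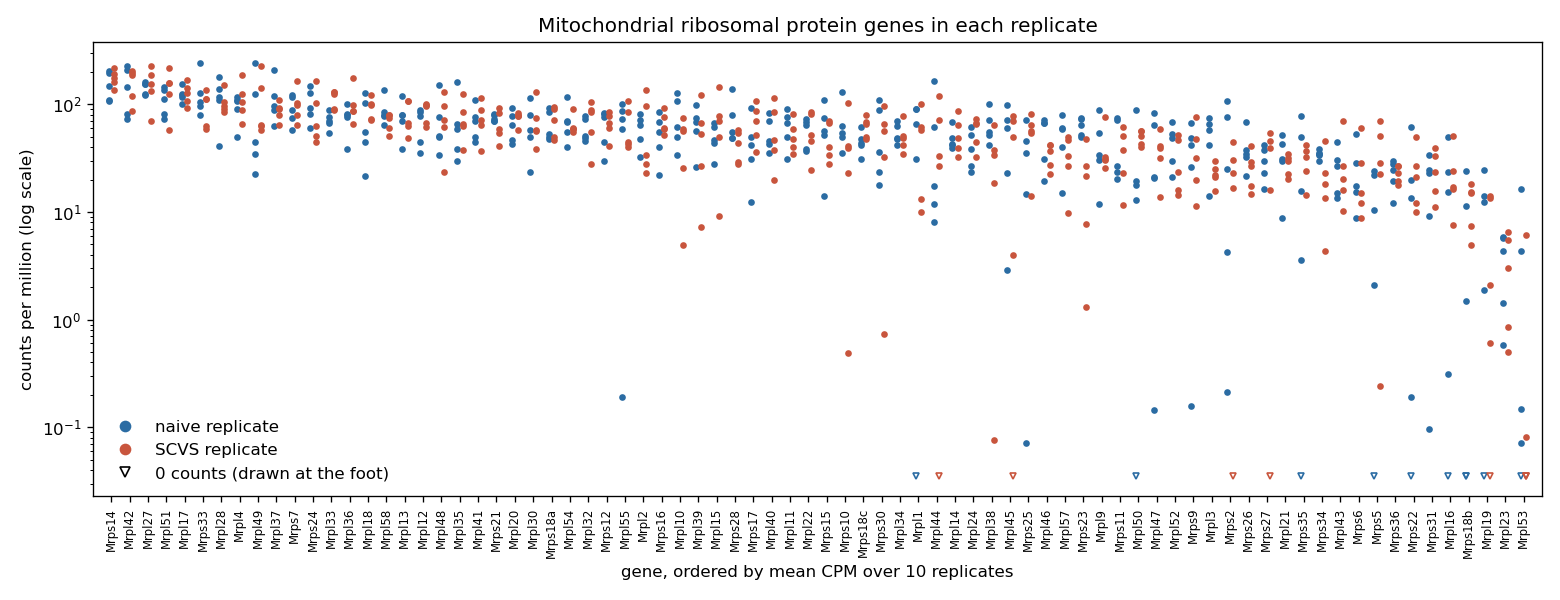
Level of each of the 78 genes in each of the 10 replicates, in CPM on a log axis, with naive replicates in blue and SCVS replicates in red. Open triangles at the foot mark 0 counts. Most genes lie in a narrow band, and replicates with few or no counts gather among the genes of lower mean level to the right.

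The spread between replicates was smaller for the members than for genes at large. The biological coefficient of variation that edgeR estimated had a median of 0.723 over the members and 1.46 over all tested genes, and 0.898 over the tested genes in that CPM range. It was 0.562 over the 82 genes of the cytosolic ribosome. No test was made of these differences. Mrpl17, a large-subunit protein with a bacterial counterpart, had the smallest coefficient of variation in CPM over the 10 replicates, 19.0%. Its level in naive replicates 1 to 5 was 125, 121, 117, 154 and 100.4 CPM. In SCVS replicates 1 to 5 it was 107, 168, 91.8, 142 and 128 CPM. The groups overlapped throughout their range, and the highest and the lowest value were both in SCVS replicates.

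At the other end stood Mrpl53, a large-subunit protein found only in mitochondria. Its counts were 172, 55, 1, 2 and 0 in naive replicates 1 to 5. They were 0, 75, 1, 0 and 0 in SCVS replicates 1 to 5. Only 3 replicates were above the floor, and the gene overlaps Ccdc142, so reads from the overlap cannot be assigned with certainty. In all, 19 members missed the floor in at least 1 replicate. Of these, 13 exceeded it in 9 replicates, and 5 (Mrps18b, Mrps5, Mrpl19, Mrps22 and Mrps2) in 8. Mrpl19, a large-subunit protein, had 256, 24, 173, 0 and 187 counts in naive replicates 1 to 5. It had 0, 173, 167, 8 and 21 counts in SCVS replicates 1 to 5. Both groups held a replicate with no read.

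Detection was also counted by gene length. Among the 39 members with the shorter annotated exons, with a median of 1170 bases, 33 exceeded the floor in all 10 replicates. Among the 39 with longer exons, with a median of 3258 bases, 26 did. The difference was not tested.

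Levels of different genes were compared per kilobase of annotated exon. Mrpl42, a large-subunit protein found only in mitochondria, had the highest mean, 220 ± 105 CPM per kb in naive and 239 ± 78.9 in SCVS replicates (SD, n = 5 each). Mrpl27, the counterpart of bacterial L27, came next in the large subunit with 146 ± 19.3 and 157 ± 60.2 CPM per kb. It was followed by Mrpl36 with 83.5 ± 25.1 and 115 ± 47.9, Mrpl41 with 90.4 ± 33.0 and 96.7 ± 36.7, and Mrpl52 with 107 ± 45.9 and 73.8 ± 42.6 CPM per kb. The last 3 did not differ from each other beyond their spread. In the small subunit, Mrps16 had the highest mean over the 10 replicates, with 95.7 ± 43.3 CPM per kb in naive and 120 ± 29.4 in SCVS replicates, while Mrps33 was the higher of the pair in naive replicates. Mrps33 had 105 ± 52.5 and 78.2 ± 27.0, Mrps28 95.1 ± 49.4 and 54.4 ± 17.8, Mrps24 69.4 ± 23.9 and 57.9 ± 33.7, and Mrps12, the decoding-site protein, 61.0 ± 23.7 and 63.5 ± 16.5 CPM per kb. In SCVS replicates Mrps16 exceeded Mrps28 and Mrps12 by more than the SDs, and the other pairs of these 5 lay within theirs. The order depends on the length used. Per kb of the longest transcript, Mrpl42 and Mrpl27 also ranked 1 and 2 among the 78 members, but Mrpl54 ranked 3 and Mrpl28 ranked 5, and Mrpl36, Mrpl41 and Mrpl52 ranked 7, 10 and 12. In the small subunit, Mrps16 and Mrps33 then ranked 4 and 6, and Mrps21, which ranked 22 by exon length, came 8, ahead of Mrps24, Mrps28 and Mrps12 at 9, 18 and 19.

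The summed level of the large-subunit genes in naive replicates 1 to 5 was 3246, 3490, 2889, 2842 and 3762 CPM. In SCVS replicates 1 to 5 it was 3888, 2990, 3672, 2922 and 3097 CPM. The groups overlapped, with means of 3246 ± 393 CPM in naive and 3314 ± 437 CPM in SCVS replicates (SD, n = 5 each). The small-subunit genes summed to 1279, 1380, 1311, 1269 and 1736 CPM in naive replicates 1 to 5. They summed to 1558, 1291, 1370, 1059 and 1343 CPM in SCVS replicates 1 to 5. Naive replicate 5, with its low endothelial markers, was the highest, and SCVS replicate 4 the lowest. The ratio of the large to the small sum was 2.34 ± 0.182 in naive and 2.51 ± 0.206 in SCVS replicates, and it lay between 2.17 and 2.76 in the 10 replicates.

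**Figure D2:**
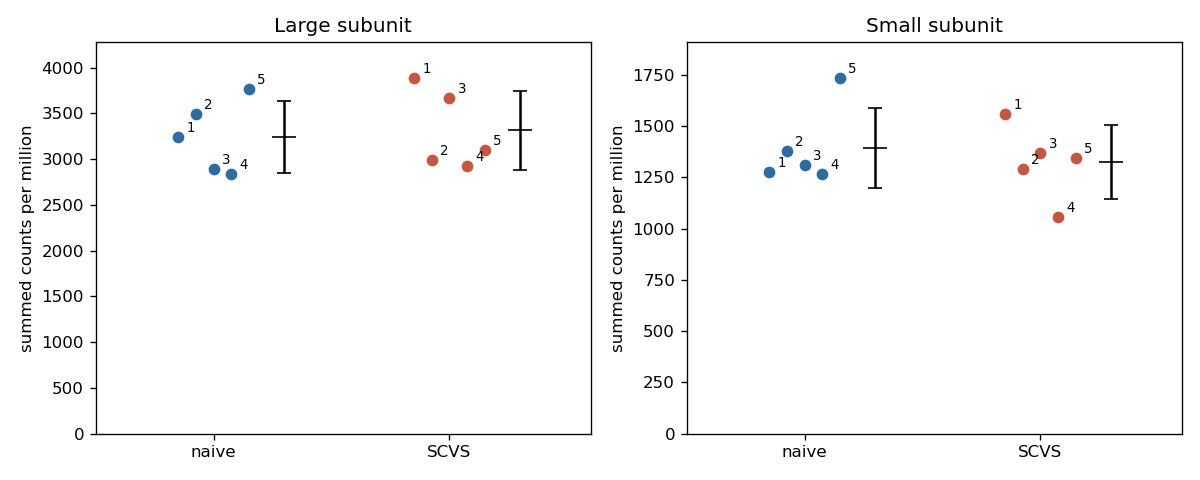
Summed CPM of the large-subunit genes (left) and the small-subunit genes (right), with 1 point per replicate labelled by its number, and black bars for the mean ± SD of 5 replicates. The ranges of the groups overlap in both panels, and naive replicate 5 is the highest point of the small subunit at 1736 CPM.

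No member differed between SCVS and naive mice in the test across all genes. All 78 passed the filter of more than 5 counts in at least 3 replicates. In edgeR's quasi-likelihood test, with p adjusted by Benjamini-Hochberg over 14815 genes, 0 of 78 members passed an adjusted p of 0.1, and the share of all tested genes that passed was 0%. At an unadjusted p under 0.05 the count was also 0 of 78, where 3.1% of all tested genes fell. DESeq2 called 0 of 78 members at an adjusted p of 0.1 and 0.769% of all genes. At an unadjusted p under 0.05 it gave 3 members, Mrps23, Mrpl3 and Mrpl33, and 4.46% of all genes. limma voom called 0 members and 0.0135% of all genes. It had 1 member, Mrps23, and 4.97% of all genes at an unadjusted p under 0.05. The median log2 fold change of SCVS over naive was -0.01 over the members and -0.03 over all tested genes. Of the members, 37 had a value above 0 and 41 a value below 0, and 73 of 78 (93.6%) had a log2 fold change between -1 and 1, against 68.4% of all tested genes and 77 of 82 (93.9%) for ribosomal proteins of the cytosol. Among genes in the CPM range given above, the shares were 36 of 38 members (94.7%) and 85.8% of 2317 tested genes. Without naive replicates 1 and 5, 0 members were called and the median was 0.09, and without SCVS replicate 5 these were 0 and -0.08.

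Between the subunits and classes, the medians were close together. The median log2 fold change was -0.004 over the 51 large-subunit genes and -0.01 over the 26 small-subunit genes. It was 0.02 for 30 large-subunit genes with a bacterial counterpart and -0.16 for 21 classed as specific to mitochondria. For the small subunit the medians were -0.03 over 16 genes and 0.01 over 10. The specific class includes Mrps18a and Mrps18b, although both are relatives of bacterial S18.

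**Figure D3:**
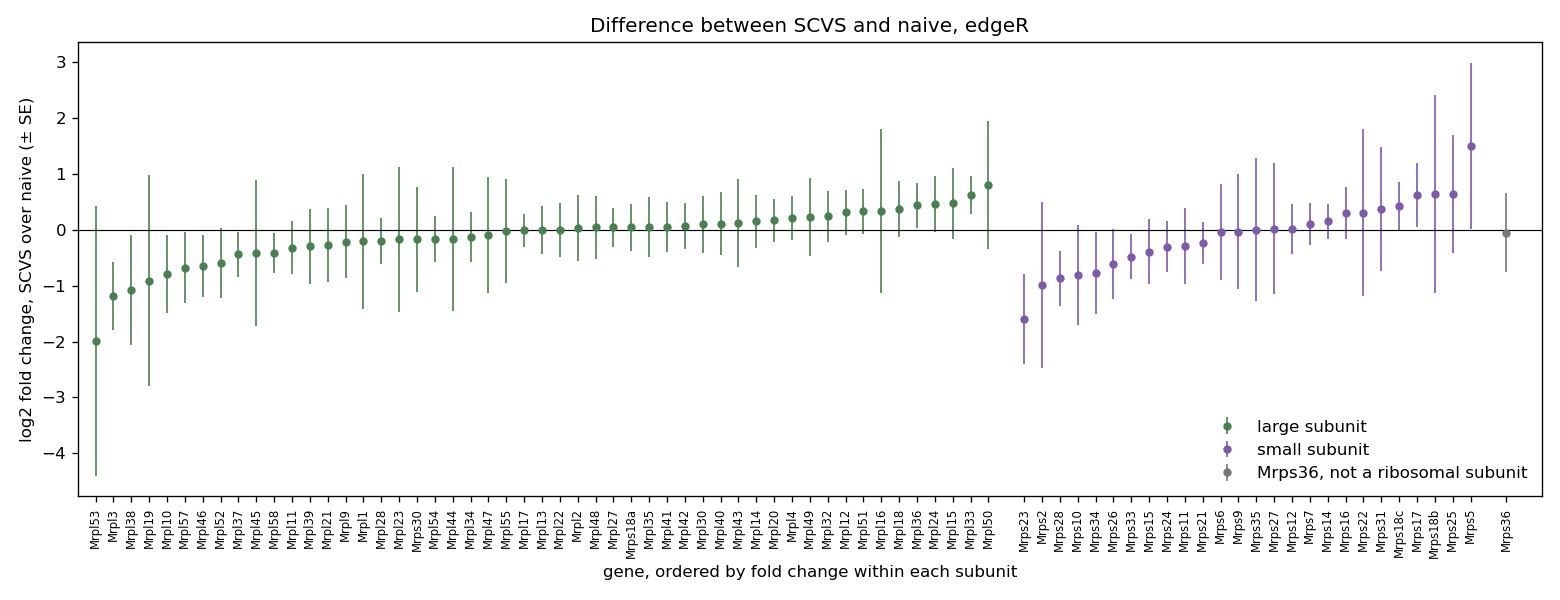
Log2 fold change of SCVS over naive for each of the 78 genes with its standard error, from edgeR, ordered within the large subunit (green), the small subunit (purple) and Mrps36 (grey). For 63 genes the value lies within 1 SE of 0, and no gene passed the threshold on the adjusted p.

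The groups did not overlap in CPM for 2 of 78 members, 1 in each direction, against 0.628% of all tested genes in either direction. The lower one was Mrps23, a small-subunit protein found only in mitochondria. In naive replicates 1 to 5 it had 64.0, 72.4, 74.6, 52.5 and 49.7 CPM. In SCVS replicates 1 to 5 it had 26.6, 7.72, 21.6, 48.1 and 1.30 CPM. SCVS replicate 4 was just under the lowest naive replicate, and SCVS replicate 5 was the lowest. Its log2 fold change was -1.59 ± 0.80 (SE), with an unadjusted p of 0.0728 and an adjusted p of 1.00 by edgeR. Without SCVS replicate 5 the log2 fold change was -1.29, and without naive replicates 1 and 5 it was -1.66. The gene overlaps Cuedc1.

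The higher one was Mrpl33, the counterpart of bacterial L33 in the large subunit. In naive replicates 1 to 5 it had 88.5, 70.6, 75.8, 53.8 and 66.8 CPM. In SCVS replicates 1 to 5 it had 130.1, 89.5, 124, 129.5 and 90.5 CPM. The highest naive value, in replicate 1, was barely under the lowest SCVS value, in replicate 2. Its log2 fold change was 0.63 ± 0.34 (SE), with an unadjusted p of 0.0888 and an adjusted p of 1.00 by edgeR. With CPM from TMM-scaled or DESeq2-scaled totals the groups of Mrpl33 overlapped, and Mrps23 was then the 1 member left. Without naive replicates 1 and 5 the log2 fold change was 0.74. The gene overlaps Gm38424.

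Other members with small p values had overlapping groups. Mrpl3, which lies near the peptidyl transferase centre, had 41.5, 74.2, 14.02, 65.6 and 57.5 CPM in naive replicates 1 to 5. It had 24.97, 21.2, 30.0, 21.8 and 15.6 CPM in SCVS replicates 1 to 5. Naive replicate 3 was the lowest of all, and the other naive replicates were above every SCVS replicate. The log2 fold change was -1.18 ± 0.61 (SE). Mrps28 had 139.7, 55.7, 79.8, 48.4 and 48.7 CPM in naive replicates 1 to 5. It had 29.2, 53.6, 44.1, 27.7 and 58.4 CPM in SCVS replicates 1 to 5. Naive replicate 1 was the highest, and the groups overlapped. The log2 fold change was -0.87 ± 0.49 (SE), and -0.48 without naive replicate 1. Mrps28 overlaps 3 other annotated genes.

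Among the members lower in SCVS by the fit, Mrpl46 had a log2 fold change of -0.65 ± 0.55, Mrps33 of -0.48 ± 0.41 and Mrpl58 of -0.41 ± 0.36 (SE). Mrpl58 is a peptidyl-tRNA hydrolase that became a ribosomal protein. Mrps33 and Mrpl58 were each highest in naive replicate 5, at 242 and 136 CPM, and without that replicate their log2 fold changes were -0.11 and -0.20. Among those higher in SCVS, Mrps17 had 0.63 ± 0.58, Mrpl36 0.44 ± 0.41, Mrpl24 0.47 ± 0.50 and Mrps5 1.50 ± 1.49 (SE). The value of Mrpl36 was 0.12 without SCVS replicate 3, and that of Mrps17 was 0.40 without SCVS replicate 3 and 1.03 without naive replicate 2. Mrps5 had 0, 27, 306, 143 and 320 counts in naive replicates 1 to 5. It had 982, 350, 3, 301 and 511 counts in SCVS replicates 1 to 5. Each group held a replicate at or under the floor.

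Of the 3 relatives of bacterial S18, Mrps18a and Mrps18c exceeded the floor in all 10 replicates and Mrps18b in 8. Mrps18c had 43.7, 48.0, 31.2, 62.1 and 41.5 CPM in naive replicates 1 to 5. It had 68.2, 47.9, 78.9, 50.1 and 65.7 CPM in SCVS replicates 1 to 5. The groups overlapped, at a log2 fold change of 0.43 ± 0.43 (SE). Mrps18a, of the large subunit, had between 47.8 and 92.4 CPM in naive and between 46.8 and 94.1 CPM in SCVS replicates. Mrps18b had 250, 0, 0, 154 and 20 counts in naive replicates 1 to 5. It had 218, 184, 91, 65 and 180 counts in SCVS replicates 1 to 5. Reads were missing from 2 naive replicates, and the log2 fold change was 0.64 ± 1.78 (SE). It was 1.91 without naive replicate 1 and 0.32 without naive replicate 3, and 3.52 with limma voom.

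Copies elsewhere in the genome limit some of these values. For 16 members, a copy at least 95% identical over at least 50% of the coding sequence was found at another place in the mm9 genome, and Mrps36 had 4 such copies. Of the 10 genes given per kb, Mrpl42, Mrpl27 and Mrps33 had 1 such copy each and Mrpl41 and Mrps16 had 2, so their levels are uncertain. Mrps18b and Mrps5 also had 1 such copy each, and Mrps18b overlaps Gm16279. Mrpl23 had a copy with 100% identity. Its own total over the 10 replicates was 446 counts, while 594 were assigned to the pseudogene Mrpl23-ps1, so the level of Mrpl23 is uncertain. In the RefSeq annotation of GRCm38.p6, 25 members overlap another gene.

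A pair of members start close together on opposite strands. Mrpl46 of the large subunit (chr7:78775341-78783089) and Mrps11 of the small subunit (chr7:78783131-78792988) are divergent neighbours, 41 bases apart in GRCm38.p6. Mrps11 had 74.6, 23.3, 27.0, 20.3 and 72.0 CPM in naive replicates 1 to 5. It had 11.5, 37.3, 61.5, 22.9 and 50.8 CPM in SCVS replicates 1 to 5. Mrpl46 had 19.3, 71.0, 67.8, 30.8 and 67.7 CPM in naive replicates 1 to 5. It had 41.6, 41.6, 22.7, 36.6 and 27.1 CPM in SCVS replicates 1 to 5. Naive replicate 1 was the highest for Mrps11 and the lowest for Mrpl46. The RefSeq promoter window of Mrps11 (plus strand, chr7:78782881-78783180) is shown because it covers the gap between the genes. Capitals mark a match to the YY1 motif, at chr7:78783024-78783031, which lies within Mrpl46 and not in the gap. The window of Mrpl46 (minus strand, chr7:78783040-78783339) does not hold it.
Mrps11: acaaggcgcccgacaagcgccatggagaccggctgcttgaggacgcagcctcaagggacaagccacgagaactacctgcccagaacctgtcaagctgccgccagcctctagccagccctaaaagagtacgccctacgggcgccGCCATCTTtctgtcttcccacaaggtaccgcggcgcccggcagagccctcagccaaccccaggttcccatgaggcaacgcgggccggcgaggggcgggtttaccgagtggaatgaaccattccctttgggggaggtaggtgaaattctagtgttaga

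Promoter windows of 300 bases were found for 69 members. On either strand, the YY1 motif AAGATGGC was in those of 12 members (17.4%) and 3.19% of 27025 genes. The ETS motif CCGGAAGT was in 12 members (17.4%) and 4.31% of genes, and the NRF1 core GCATGCGC in 8 members (11.6%) and 3.05% of genes. A match is a description of the letters and no test was made.

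Other genes of mitochondrial translation were described from 7 lists, and 0 genes of any list passed the adjusted p of 0.1 in edgeR or DESeq2. Of 5 ribosomal proteins with other symbols, 2 had a log2 fold change above 0 and 3 below. Gadd45gip1 had 0.27 ± 0.42, which was 0.11 without SCVS replicate 5 and 0.41 without SCVS replicate 3. Ptcd3 had -0.85 ± 1.12 (SE), which was -0.19 without naive replicate 5, -1.83 without SCVS replicate 3 and -1.43 with limma voom. Of 12 translation factors, 6 were above and 6 below 0. Tsfm, the elongation factor that recycles mitochondrial EF-Tu, had 395, 627, 573, 595 and 618 counts in naive replicates 1 to 5. It had 256, 422, 307, 253 and 133 counts in SCVS replicates 1 to 5. In CPM its groups did not overlap, with 43.6 ± 4.39 in naive and 22.0 ± 8.17 in SCVS replicates (SD, n = 5 each). Tsfm was the only such gene of the 85 tested in the lists, against 0.628% of all tested genes. Its log2 fold change was -1.05 ± 0.57 (SE), with an unadjusted p of 0.0916 by edgeR. Gfm2, a ribosome recycling factor, had -1.78 ± 0.87 and Guf1, a translocase-like GTPase, 1.84 ± 0.85 (SE), and their groups overlapped. The value of Guf1 was 1.14 without SCVS replicate 3.

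Of 17 mitochondrial aminoacyl-tRNA synthetases, 7 were above and 10 below 0. Nars2 was the 1 of 85 tested genes of the lists (1.18%) at an unadjusted p under 0.05 in edgeR, against 3.1% of all tested genes. Its counts were 0, 149, 875, 202 and 9 in naive replicates 1 to 5. It had 9, 0, 0, 0 and 0 counts in SCVS replicates 1 to 5. Naive replicate 1 also had no read, so the groups overlapped. Rars2 had a log2 fold change of 1.15 ± 0.77 (SE), which was 2.08 with limma voom and 1.81 with a replicate block. Of 23 assembly factors, 11 were above and 12 below 0, with Mtg1 at 3.12 ± 1.67 and Fastkd2 at -0.97 ± 0.99 (SE). The value of Fastkd2 was -0.42 without naive replicate 1, -0.25 without naive replicates 1 and 5, and -1.66 with limma voom. Of 13 tested genes of mitochondrial transcription and RNA processing, 9 were above and 4 below 0, with Prorp at 3.54 ± 2.58 and Trmt10c at -1.12 ± 1.44 (SE). Prorp was at 6.18 without naive replicate 3 and 5.76 with a replicate block, and Trmt10c at -0.65 without naive replicate 1. Only 2 of these 13 exceeded the floor in all 10 replicates, and 2 of the 17 synthetases.

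The 13 protein-coding genes of the mitochondrial genome exceeded the floor in all 10 replicates. Their measured levels ranged widely, from a mean of 7.86 CPM for mt-Nd3 to 24335 CPM for mt-Cytb. Copies of these genes elsewhere in the genome were not searched for, so the levels are uncertain, and the part of copies in this range was not tested. Of the 13, 1 had a log2 fold change above 0 and 12 below, with a median of -0.14. SCVS replicate 2 had the lowest sum of these genes, 27856 CPM, against at least 52904 CPM in the other replicates. Without it, 8 were above and 5 below 0, with a median of 0.08, and without naive replicate 5, which had the highest sum, the counts were also 8 and 5, with a median of 0.02. In the other direction, all 13 were below 0 without naive replicate 2, naive replicate 3 or SCVS replicate 3, with a median of -0.37 without the last. The median was below 0 in 8 of the 10 fits that left out 1 replicate. The values were 0.05 ± 1.12 for mt-Nd3 and -0.44 ± 0.42 for mt-Nd6 (SE), the latter -0.21 without naive replicate 1. mt-Nd6 lies on the other strand than the rest, and reads from it and from antisense RNA cannot be told apart, since no source used here gives the strand setting of the counting. The 12S ribosomal RNA gene mt-Rnr1 had -0.19 ± 0.44 (SE), and 0.087 without SCVS replicate 2. With limma voom it had -0.69, and with a replicate block -0.46. SCVS replicate 2 had the lowest sum of both ribosomal RNAs, 9409 CPM, against at least 33599 CPM in the other replicates.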

How the data were processed

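RNA was sequenced from 5 naive and 5 SCVS replicates, grouped by their labels. The authors amplified the RNA, aligned the reads and deposited raw counts per gene, with no normalization. The submitters' processing notes name cutadapt 1.9.1, HISAT2 2.0.1, HTSeq 0.6.1 and GRCm38, whereas the paper's methods name mm9, and the table holds identifiers newer than the mm9 annotation used here. Use of strand is not given in the sources used here. Coordinates and overlaps come from RefSeq (GRCm38.p6), and exon lengths and copies from GENCODE M1 and its mm9 genome, with BLAST 2.17.0. All 78 members matched both.

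The 14815 genes that exceeded 5 counts in 3 or more replicates were tested with edgeR 4.0.16 (quasi-likelihood, TMM, R 4.3.3), and p adjusted by Benjamini-Hochberg was compared with 0.1. The SE is the absolute log2 fold change divided by the square root of F. Simulated counts were also run through these tests. The common biological coefficient of variation in these data was 1.59. No power to find changes at that spread is drawn from the simulated counts. DESeq2 1.42.0, limma 3.58.1, other scalings and filters, a replicate block and leaving out each replicate were alternatives. Leaving out naive replicates 1 and 5 together, and each replicate for the gene lists, was added after seeing the data.

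The members and lists were chosen with earlier results of these data known. Genes named are the 5 members of each subunit with the highest CPM per kb, the 6 of lowest p among higher and among lower members, those with non-overlapping groups, those called, the S18 relatives, and in each list the gene of lowest p on either side and any without overlap. The rule also takes members that fail the filter, of which there were 0, and the 59 above the floor in all replicates, which are given as counts and ranges. Mrpl17, Mrpl19, Mrpl23, Mrpl53 and Mrps11 were described after their values were seen. Of 89 list symbols, 86 matched the table. Mtrfr did not, and Mrp63 and Ict1 are older symbols of the members Mrpl57 and Mrpl58. Python 3.11.15 was used.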

Additional observations from a re-analysis of the deposited data

Results flagged for a closer look

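In 80 groups of 5 replicates examined, 8 had 1 replicate far from the others, where chance gives about 1 in 20 groups of normal, independent values. CPM are skewed and the groups share replicates, so 8 of 80 is not shown to exceed chance. The measure is the gap to the nearest other replicate as a share of the group's range. It was 0.714 for Mrpl36 in SCVS replicate 3, 0.714 for Mrps33 in naive replicate 5, and 0.72 for Mrpl58 in naive replicate 5, all of them the highest. The small-subunit sum was highest in naive replicate 5, with 0.761. Among the other genes it was 0.715 for Guf1 in SCVS replicate 3, 0.762 for Nars2 in naive replicate 3 and 0.861 for Prorp in naive replicate 3. For Nars2 in SCVS replicate 1, the only SCVS replicate with a read, it was 1. Naive replicate 5 is the replicate with few endothelial reads, and its part in these values was not tested.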

How the results depend on the processing

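No member was called by edgeR, DESeq2, limma voom or any other setting tried. The count at an unadjusted p under 0.05 was 0 by edgeR, 3 by DESeq2 with its defaults, 3 by DESeq2 without Cook's and independent filtering, and 1 by limma voom. Of all 14815 tested genes, 460, 661, 712 and 736 passed in these fits, in the same order. At that p, leaving out each replicate gave 0 to 1 members, Mrpl3 without naive replicate 3 and Mrps23 without SCVS replicate 4. Of all tested genes, 436 of 14499 passed without naive replicate 3 and 379 of 14242 without SCVS replicate 4. The highest such count was 601 of 14191, without naive replicate 5. Non-overlapping members fell from 2 to 1 with TMM-scaled totals and to 1 with DESeq2 size factors, since another scaling of the totals moved Mrpl33. The share of all tested genes was 0.587% with TMM-scaled totals and 0.628% with DESeq2 size factors. With 1 replicate left out the number of such members was 2 to 3. The share of all tested genes was then 1.14% to 1.36%, against 0.628% with all replicates. The median log2 fold change of the members moved by less than the spread between replicates in all settings tried, between -0.14 and 0.09.

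Of 663 refitted values of 35 named genes, 30 in 8 genes changed sign, all of values not called, and the cause was not tested. Of the 35 genes, 24 moved by over 1.5 times or changed sign when some 1 replicate was left out. With limma voom, which moved the median of all tested genes from -0.03 to 0.10, Mrpl27 was -0.051 and mt-Nd3 -0.13. Without naive replicates 1 and 5, chosen after seeing the data, Mrps12 was -0.10 and mt-Nd6 0.24. With 1 replicate left out, the ranges were -0.10 to 0.29 for Mrpl42, -0.16 to 0.23 for Mrpl27, -0.16 to 0.28 for Mrpl41, -0.14 to 0.15 for Mrps12, -0.080 to 0.21 for Mrps18a, -0.35 to 0.28 for mt-Nd3 and -0.37 to 0.087 for mt-Rnr1.

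With a replicate block, 0 members were called, the median was -0.03, Mrpl27 was -0.037 and mt-Nd3 -0.14, and Mrps18b was 3.62. Deviations of same-numbered replicates correlated at 0.04, 0.05, -0.02, 0.06 and 0.15 across genes, and 4 of 5 replicates matched their own number best. Only 1 correlation was over 0.1. The pools are of different animals, but different animals can share a batch, and a batch shared by same-numbered replicates was not tested. The main fit did not take the numbers as pairs.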
